A study of Zea mays with 12 samples.

Results

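A set of 4 maize genes described as TIFY proteins, the repressors of jasmonate signalling, were followed across all libraries of a series on maize (Zea mays) and the bacterial strain BV-3. They are 1 gene described as TIFY 11e (Zm00001eb048770), 1 described as TIFY 6a (Zm00001eb179390) and a pair described as TIFY 10b (Zm00001eb168150 and Zm00001eb009620). The 4 genes were taken by their identifiers out of the 52932 genes of the deposited table, which describes 52 genes in all as TIFY. The names are those of the closest Swiss-Prot protein in the table, here from rice. The 4 were selected on expression values of these same libraries, and the comparison that led to them is not recorded. Their levels and fold changes are therefore given as a description with no test, and tests are given for other genes of the pathway.

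RNA was measured by poly(A)-selected sequencing in 12 libraries from tissue labelled as the whole body of the plant, 3 in each of 4 groups. The groups combine the label CK or BV-3 with the label disease susceptibility or disease resistance. The series title names a strain of Bacillus velezensis, a soil bacterium, and BV-3 is read here as that strain, with which plants were inoculated; CK is used below as the label of the groups to which the strain is not assigned. The sample titles carry the codes 986 (CK susceptible), 801 (CK resistant), gan (BV-3 susceptible) and kang (BV-3 resistant), which no source used here explains. The genotypes behind the disease labels are likewise not stated in these sources, nor the age of the plants, the way BV-3 was applied or the time of harvest. Each group's 3 libraries are separate samples in the labels, which do not name the plants or pools behind them, so p-values measure only the spread between these samples and part of it may be technical.

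Jasmonate is a lipid-derived plant hormone made in response to wounding, insects and many microbes. In plants with little hormone, TIFY proteins of the JAZ type bind MYC transcription factors and keep jasmonate-responsive genes off. The active form, jasmonate joined to isoleucine, brings JAZ proteins to the receptor COI1 and thereby to their destruction. In Arabidopsis many JAZ genes are themselves switched on by MYC factors, so that their transcripts are widely read as a record of recent jasmonate signalling. All 4 genes encode proteins for which the table lists a tify domain or Jas motif.

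Total counts were 27 to 37.8 M per library, and 33605 to 37691 genes had a count. Libraries labelled susceptible and resistant could be told apart by 246 genes present in all BV-3 susceptible and next to absent in all BV-3 resistant libraries, and by 339 genes with the opposite pattern. CK susceptible replicate 1 had 98% of the susceptible and 0.59% of the resistant markers. CK susceptible replicates 2 and 3 had 0.813 and 1.63% of the susceptible and 94.4 and 95% of the resistant markers, so these 2 libraries go against their label. CK resistant replicate 2 also stood apart. Its green-leaf genes summed to 1762 FPKM, while all other libraries had 14240 to 49332 FPKM, and its ribosomal protein and histone genes, a list used for dividing cells, summed to 88591 FPKM against 11703 to 28283 FPKM. Genes of Casparian strip proteins, which mark the root endodermis, summed to 0.384 to 15.2 FPKM, with the highest sum in that same library. Levels below are FPKM, the length- and depth-scaled fragment values of the authors. Log2 fold changes are from edgeR on the counts, with their standard error.

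TIFY 11e reached the highest level of the 4 genes, and in both disease classes every BV-3 library lay above every CK library. The same order held for 18.6% of all genes tested in the susceptible and 7.71% in the resistant class, shares given for reference only since the gene was picked on these libraries. It stood at 29.0, 4.02 and 4.68 FPKM in CK susceptible replicates 1, 2 and 3, and at 206, 278 and 167 FPKM in the BV-3 susceptible libraries. In the resistant groups it stood at 19.6, 8.22 and 18.2 FPKM under CK and at 69.4, 54.8 and 30.4 FPKM under BV-3. The order of the group means was therefore BV-3 susceptible, BV-3 resistant, CK resistant and CK susceptible, and the ranges of the CK groups overlapped. The means were 217 ± 56.3 against 12.6 ± 14.2 FPKM in the susceptible class (SD, n = 3), a ratio of 17.3, and 51.6 ± 19.7 against 15.3 ± 6.21 FPKM in the resistant class (SD, n = 3), a ratio of 3.36. The fitted log2 fold changes were 4.07 ± 0.79 and 1.82 ± 0.72, and they differed by -2.24 ± 1.00 (resistant minus susceptible).

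The size of the susceptible difference of TIFY 11e depended on the CK libraries it was set against. Against CK susceptible replicate 1 alone, the 1 CK library whose markers match the susceptible label, the 3 BV-3 libraries stood 5.76 to 9.59 times higher, with a ratio of 7.49 for their mean. Without the 2 libraries that go against their label the fitted log2 fold change was 2.85 ± 0.76, and without CK susceptible replicate 1 it was 5.63 ± 0.62. All of these values keep BV-3 above CK. TIFY 11e made up 0.516 to 1.42% of the summed FPKM of the 52 TIFY genes in the 6 CK libraries, 3.71 to 4.29% in the BV-3 susceptible and 1.64 to 2.52% in the BV-3 resistant libraries. Its share of the family's transcripts was thus higher under BV-3 in both classes, with no overlap. This is a description only, since the gene was picked on these libraries, and the share is not given for the other TIFY genes.

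TIFY 6a had the steadiest level of the 4 and a BV-3 to CK ratio of similar size in both classes. Its level was 12.7, 9.79 and 11.9 FPKM in CK susceptible and 18.4, 27.6 and 28.7 FPKM in BV-3 susceptible libraries. It was 13.6, 17.3 and 14.4 FPKM in CK resistant and 42.8, 44.7 and 22.1 FPKM in BV-3 resistant libraries. BV-3 libraries again lay above all CK libraries of their class, while the BV-3 ranges of the classes overlapped. The ratio of means was 2.17 in the susceptible and 2.42 in the resistant class, with log2 fold changes of 1.08 ± 0.30 and 1.38 ± 0.30 and a difference between them of 0.30 ± 0.42. Against CK susceptible replicate 1 alone the ratio was 1.96, and without the 2 libraries that go against their label the log2 fold change was 0.90 ± 0.48. CK resistant libraries all lay above CK susceptible libraries in FPKM, as for 15.5% of all genes, with a ratio of means of 1.32, whereas the log2 fold change from the scaled counts was 0.05 ± 0.30.

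**Figure D1:**
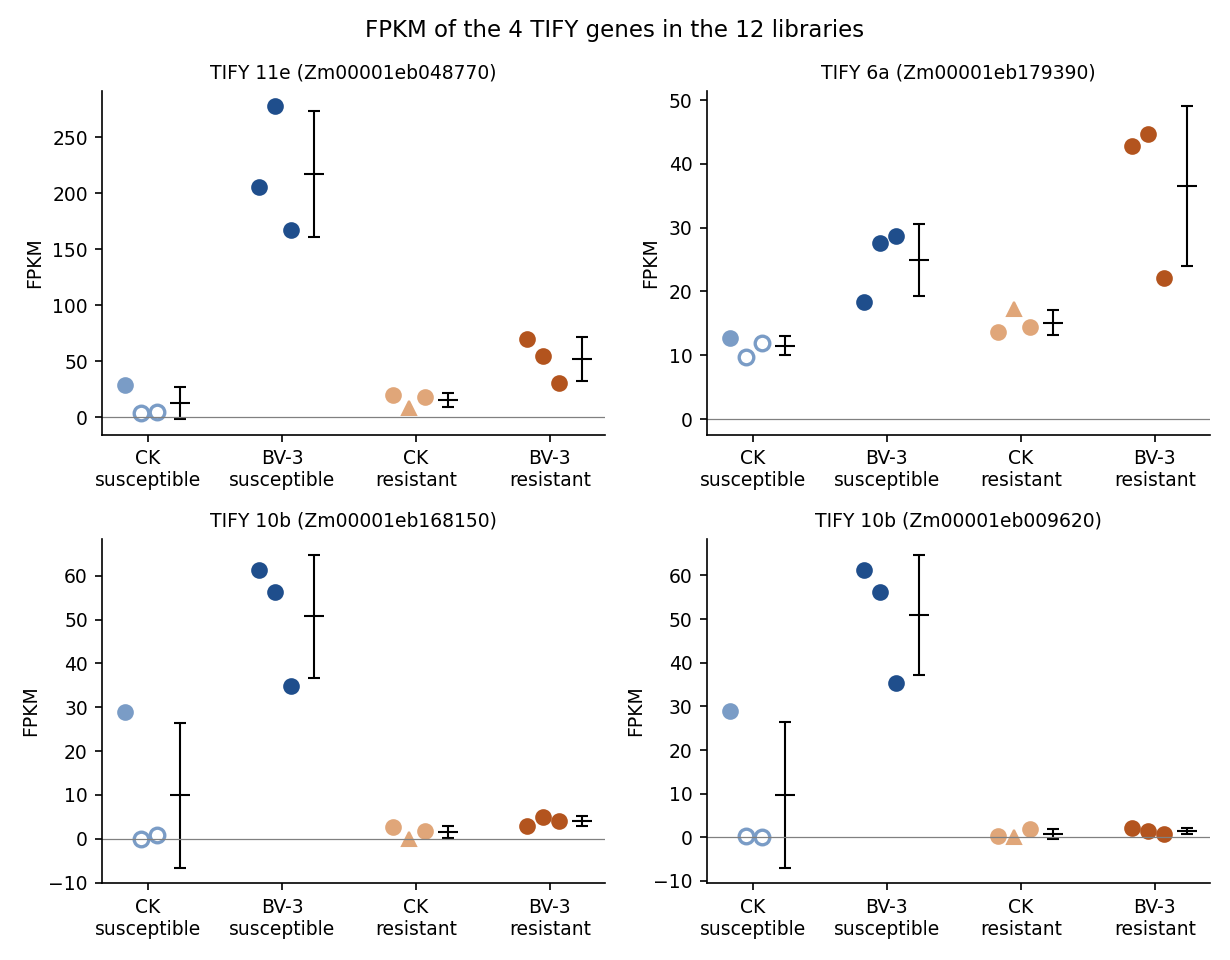
FPKM (vertical axes, linear, a scale of its own in each panel) of the 4 TIFY genes in the 12 libraries, by group; each symbol is 1 library and the bars give the mean ± SD of 3. Open circles are CK susceptible replicates 2 and 3, whose line markers go against their label, and the triangle is CK resistant replicate 2, which stands apart; TIFY 11e spans 4.02 to 278 FPKM, and both TIFY 10b genes exceed 28 FPKM in the BV-3 susceptible libraries and CK susceptible replicate 1, with no other library above 5.08 FPKM.

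The levels of the TIFY 10b pair differed most between libraries with susceptible and libraries with resistant line markers. Zm00001eb168150 stood at 61.3, 56.2 and 34.8 FPKM in the BV-3 susceptible libraries and at 28.9, 0.0485 and 0.761 FPKM in CK susceptible replicates 1, 2 and 3. In the resistant class it stood at 2.74, 0 and 1.81 FPKM under CK and at 2.82, 5.08 and 4.11 FPKM under BV-3. The 4 libraries with susceptible markers were all far above the 8 libraries with resistant markers, among them the 2 labelled CK susceptible. This order is a description only, since the gene was picked on these libraries. The share of all genes with the same order was not counted. The gene is not itself among the 246 susceptible markers, since it had 65 to 121 counts in the BV-3 resistant libraries.

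Zm00001eb009620 followed the same order at nearly the same level. It stood at 61.3, 56.3 and 35.3 FPKM in BV-3 susceptible libraries and at 29.0, 0.255 and 0 FPKM in CK susceptible replicates 1, 2 and 3. It stood at 0.214, 0.0426 and 1.98 FPKM in CK resistant and at 2.04, 1.38 and 0.693 FPKM in BV-3 resistant libraries, where the groups overlap. The fitted log2 fold changes of BV-3 against CK were 2.30 ± 1.58 and 2.33 ± 1.70 for the pair in the susceptible class, and 1.41 ± 1.57 and 0.98 ± 1.73 in the resistant class. The CK susceptible group holds 1 library near 29 FPKM and 2 below 1 FPKM of each gene. Against CK susceptible replicate 1 alone, the BV-3 susceptible libraries stood 1.21 to 2.12 times higher for Zm00001eb168150 and 1.22 to 2.11 times higher for Zm00001eb009620. Without the 2 libraries that go against their label the log2 fold change was 0.76 ± 1.37 and 0.76 ± 1.27, and without CK susceptible replicate 1 it was 6.80 ± 1.62 and 8.63 ± 1.67.

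The counts of the pair were almost equal wherever the genes were abundant. They were 617 and 620 in CK susceptible replicate 1, and 1448 and 1449, 1268 and 1270, and 702 and 713 in the BV-3 susceptible libraries, with Zm00001eb168150 first. At lower levels they were uneven in several libraries, such as 48 and 4 in CK resistant replicate 1 and 121 and 33 in BV-3 resistant replicate 2, and close in CK resistant replicate 3, with 34 and 37. The table gives both genes the same symbol, LOC100275133, which it also gives to Zm00001eb134260, a gene with 0 counts in every library. No source used here says how reads shared by near-identical genes were assigned, so they may have been split between the copies and the level of each alone is uncertain. The summed FPKM of the pair does not depend on such a split, but it counts shared reads more than once if they were assigned to both genes. It was 57.9 in CK susceptible replicate 1, 123, 112 and 70.1 in the BV-3 susceptible libraries, 0.304 and 0.761 in CK susceptible replicates 2 and 3, 0.0426 to 3.79 in CK resistant and 4.81 to 6.47 in BV-3 resistant libraries. As a sum, the BV-3 libraries lay above the CK libraries in both classes, whereas Zm00001eb009620 alone overlapped in the resistant class. The same order held for 18.6% of all genes tested in the susceptible and 7.71% in the resistant class, given for reference only.

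**Figure D2:**
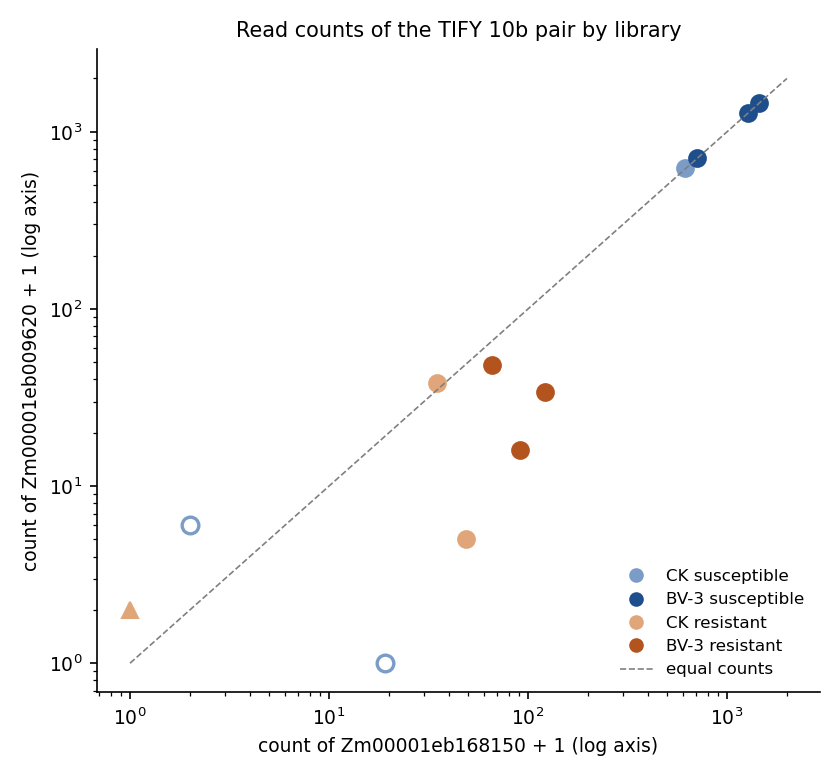
Read counts of the TIFY 10b genes in each library, Zm00001eb009620 (vertical) against Zm00001eb168150 (horizontal), as count + 1 on log axes; the dashed line marks equal counts, open circles are CK susceptible replicates 2 and 3 and the triangle is CK resistant replicate 2. The 4 libraries at the upper right, all with susceptible markers, lie on the line, from 617 and 620 counts up to 1448 and 1449, while 5 of the 8 libraries with resistant markers lie below it.

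The disease classes were compared under BV-3, in the libraries from which the line markers were defined. The BV-3 resistant level was 0.238 of the BV-3 susceptible level for TIFY 11e (log2 fold change -2.28 ± 0.73), 0.0790 for Zm00001eb168150 (-3.89 ± 1.69) and 0.0269 for Zm00001eb009620 (-5.40 ± 1.96). TIFY 6a went the other way in its means, at 1.47 times (0.35 ± 0.30) with overlapping ranges. TIFY 11e and both TIFY 10b genes lay below in every resistant library, as 14.7% of all genes did. The counts of both classes come from the same gene models, so fewer transcripts and reads of another allele that failed to map cannot be told apart.

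Across the 12 libraries, log2(FPKM + 1) of TIFY 11e ran with that of Zm00001eb168150 (Pearson r = 0.883), Zm00001eb009620 (r = 0.827) and TIFY 6a (r = 0.667). TIFY 6a and the TIFY 10b genes were less alike (r = 0.323 and 0.231), and the TIFY 10b pair reached r = 0.957. These values describe libraries that share line and treatment groups, and carry no test. By the same measure, the genes most like TIFY 11e among 13240 candidates were an allene oxide cyclase (Zm00001eb393530, r = 0.981), which makes a precursor of jasmonate, a probable calcium-binding protein CML16 (Zm00001eb125050, r = 0.981) and a bZIP transcription factor 60 (Zm00001eb110370, r = 0.98). The 3 genes had the same order of BV-3 susceptible, BV-3 resistant, CK resistant and CK susceptible means as TIFY 11e, for CML16 with means of 288, 129, 47.3 and 31.8 FPKM. Since they were picked by correlation over these same libraries, a like order follows largely from the choice and is no separate result.

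Most like TIFY 6a were a GID8 homolog (Zm00001eb399240, r = 0.947), the anion channel SLAH2 (Zm00001eb344870, r = 0.906) and a 6-phosphogluconate dehydrogenase (Zm00001eb268830, r = 0.905). Each had its highest mean in BV-3 resistant libraries, as TIFY 6a did, which again follows largely from the choice by correlation. Most like Zm00001eb168150 were another TIFY gene, described as TIFY 11a (Zm00001eb005980, r = 0.982), a cytochrome P450 86A22 (Zm00001eb031150, r = 0.98) and a U-box protein 44 (Zm00001eb141210, r = 0.978). Most like Zm00001eb009620 were a 3-ketoacyl-CoA synthase 4 (Zm00001eb296230, r = 0.981), a ribonuclease J (Zm00001eb129200, r = 0.98) and an RNA pseudouridine synthase 5 (Zm00001eb364040, r = 0.975). Ribonuclease J stood at 15.3 ± 2.85 FPKM in BV-3 susceptible and 0.473 ± 0.134 FPKM in BV-3 resistant libraries (SD, n = 3). Its difference by line is like that of the pair, as a gene picked for a high correlation with it would show.

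The family around the 4 genes was examined next. Of the 48 other genes described as TIFY, 38 carry a tify domain or Jas motif, 31 passed the filter on low counts and were tested, and 8 had 0 counts in every library. The summed FPKM of the whole family was 2648, 657 and 908 in CK susceptible replicates 1, 2 and 3 and 5557, 6529 and 3893 in the BV-3 susceptible libraries. It was 2357, 606 and 1279 in CK resistant and 2760, 2604 and 1855 in BV-3 resistant libraries. The susceptible groups did not overlap, and the resistant groups did, because CK resistant replicate 1 lay above BV-3 resistant replicate 3.

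In BV-3 against CK among the libraries labelled susceptible, 3 of the 31 other TIFY genes tested rose and 0 fell (edgeR, adjusted p under 0.05), against 2.30% of all 34291 genes tested that rose and 3.90% that fell. Their median log2 fold change was 1.74 against 0.07 over all genes, and 28 of 31 were above 0. In 20 of the 31, or 64.5%, every BV-3 library lay above every CK library, against 18.6% of all genes. A second TIFY 11e gene (Zm00001eb048780) rose from 84.5, 15.3 and 23.0 FPKM in CK to 567, 624 and 317 FPKM in BV-3 libraries (log2 fold change 3.57 ± 0.83, edgeR adjusted p = 0.0426). In the reference gene table its symbol is next to that of the TIFY 11e gene Zm00001eb048770. A further TIFY 11e gene (Zm00001eb223620) rose from 93.6, 29.8 and 31.1 to 476, 518 and 336 FPKM (3.07 ± 0.70, edgeR adjusted p = 0.0426). TIFY 11b (Zm00001eb006000), the most abundant of the 3, rose from 304, 103 and 129 to 905, 1073 and 533 FPKM (2.20 ± 0.58, edgeR adjusted p = 0.0489).

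These calls rest on the CK libraries as labelled. Without the 2 libraries that go against their label edgeR called 0 of 34 other TIFY genes and 0% of all genes. In that fit the median log2 fold change was 0.98 against 0.07 over all genes, and the lone CK susceptible library was assumed to vary like the other groups. Leaving out CK susceptible replicate 1 gave 20 calls higher and 1 lower of 34, beside 10.1% and 9.35% of all genes, with a median log2 fold change of 2.70. DESeq2 on all libraries called 13 of 31 higher and 1 lower, beside 8.22% and 12.2% of all genes, and limma on log2(FPKM + 1) called 11 higher and 0 lower, beside 4.77% and 1.87%. On the 6 susceptible libraries alone edgeR called 1 of 29 higher and 0 lower, beside 1.67% and 2.75%. In 20 of the 31, or 64.5%, every BV-3 susceptible library lay above CK susceptible replicate 1, against 31.3% of all genes.

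The CK libraries differed among themselves in much of the family. CK susceptible replicate 1 was the highest of its group in 25 of the 31 genes, or 80.6%, against 40.6% of all genes. CK resistant replicate 1 was the highest of its group in 25, against 24.4% of all genes, and CK resistant replicate 2 the lowest in 28, or 90.3%, against 45.4%. TIFY 10c (Zm00001eb314010) stood at 608, 36.0 and 121 FPKM in CK susceptible and at 397, 46.3 and 85.6 FPKM in CK resistant replicates 1, 2 and 3. Its BV-3 levels were 917, 1244 and 489 FPKM in susceptible and 319, 300 and 217 FPKM in resistant libraries, so that CK resistant replicate 1 exceeded all 3 BV-3 resistant libraries.

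**Figure D3:**
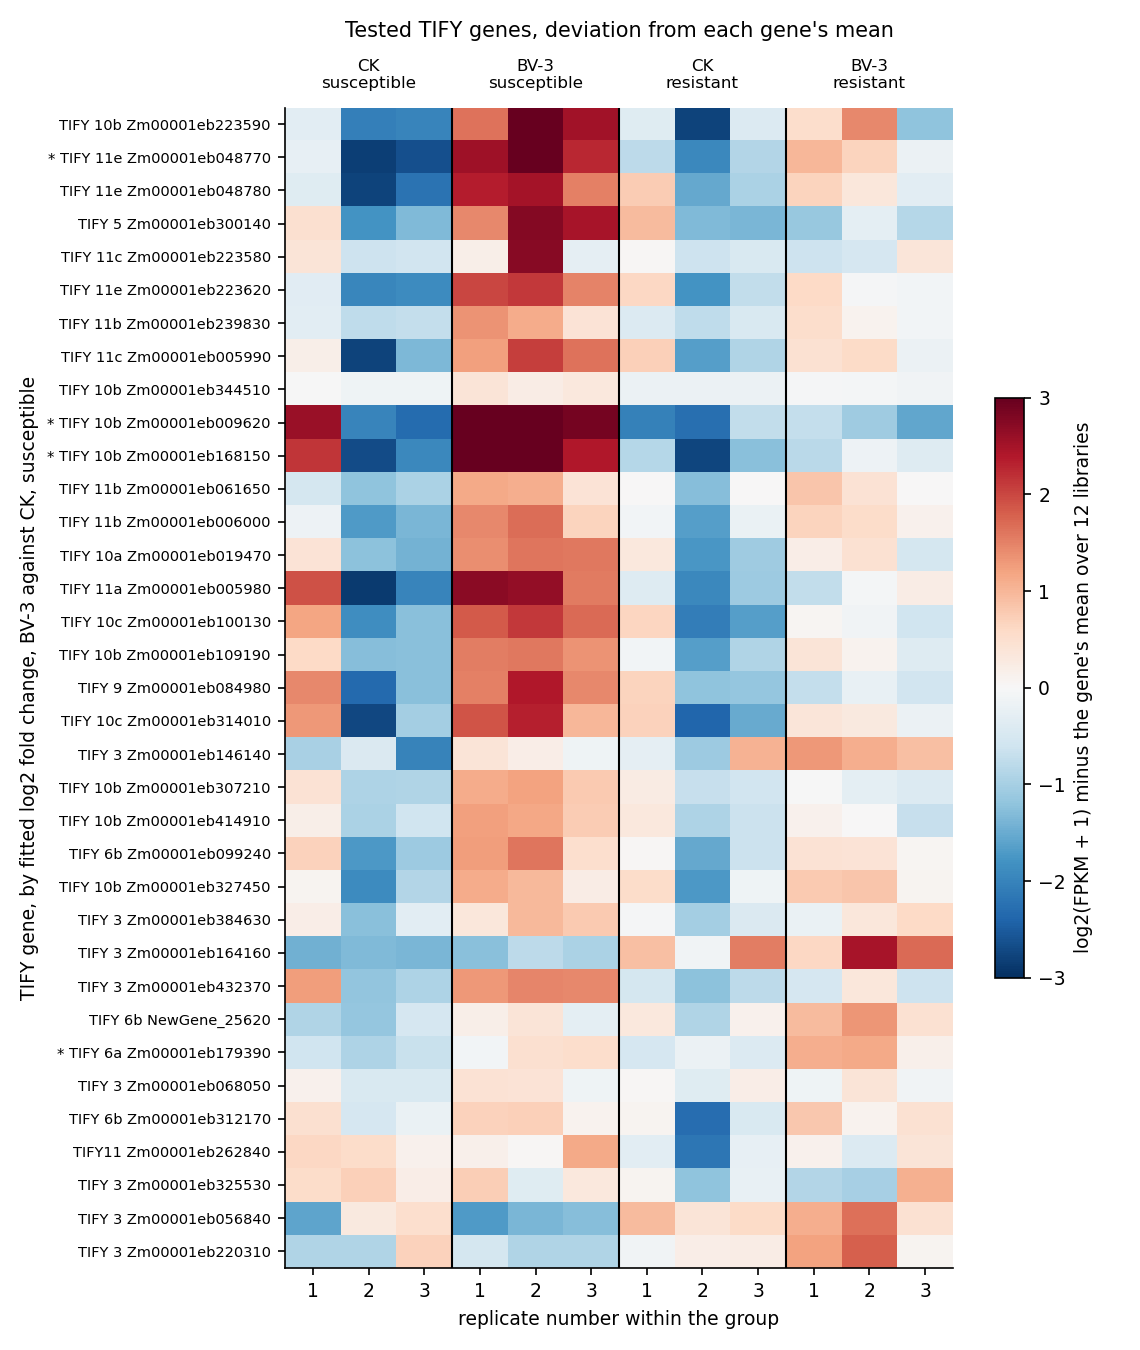
Deviation of log2(FPKM + 1) from each gene's mean over the 12 libraries (colour, red higher and blue lower, limited to -3 and 3) for the 4 TIFY genes, marked with an asterisk, and the 31 other TIFY genes tested; columns are libraries by group and replicate number, and rows are ordered by the fitted log2 fold change of BV-3 against CK, susceptible. Most rows are reddest in the BV-3 susceptible libraries, CK susceptible replicate 1 is the highest of its group in 25 of the 31 other genes, and CK resistant replicate 2 is the lowest of its group in 28.

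In BV-3 against CK among resistant libraries edgeR called 0 of the 31 other TIFY genes and 0% of all genes. An unadjusted p under 0.05 from edgeR was reached by 2 of the 31, beside 3452 of all 34291 genes. DESeq2 called 1 of the 31 higher, a TIFY 10b gene with no listed tify domain (Zm00001eb344510), and 1.61% of all genes higher. limma on log2(FPKM + 1) called 0 of 31 and 0.0175% of all genes higher. That gene had 0 counts in all CK resistant libraries and was at least 5.04-fold higher under BV-3 against a floor of 3 counts over the group. The median log2 fold change of the 31 was 0.87, with 29 above 0, against -0.07 over all genes. BV-3 libraries lay above all CK libraries in 7 of them, or 22.6%, against 7.71% of all genes. All BV-3 resistant libraries lay above CK resistant replicate 1 in 9 of 31, or 29.0%, against 29.7% of all genes, and all lay below it in another 9, against 29.3%. Without the 2 libraries that go against their label and CK resistant replicate 2, the median was 0.52. It was also 0.52 without CK resistant replicate 2 alone, and 1.48 without CK resistant replicate 1. In that last fit edgeR called 0 of 34, with 9 at an unadjusted p under 0.05, beside 3733 of all 35722 genes. The difference of the BV-3 effects between the classes was called in 0 of 31 by edgeR and in 0% of all genes. Its unadjusted p was under 0.05 in 5 of the 31, beside 4688 of all 34291 genes.

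**Figure D4:**
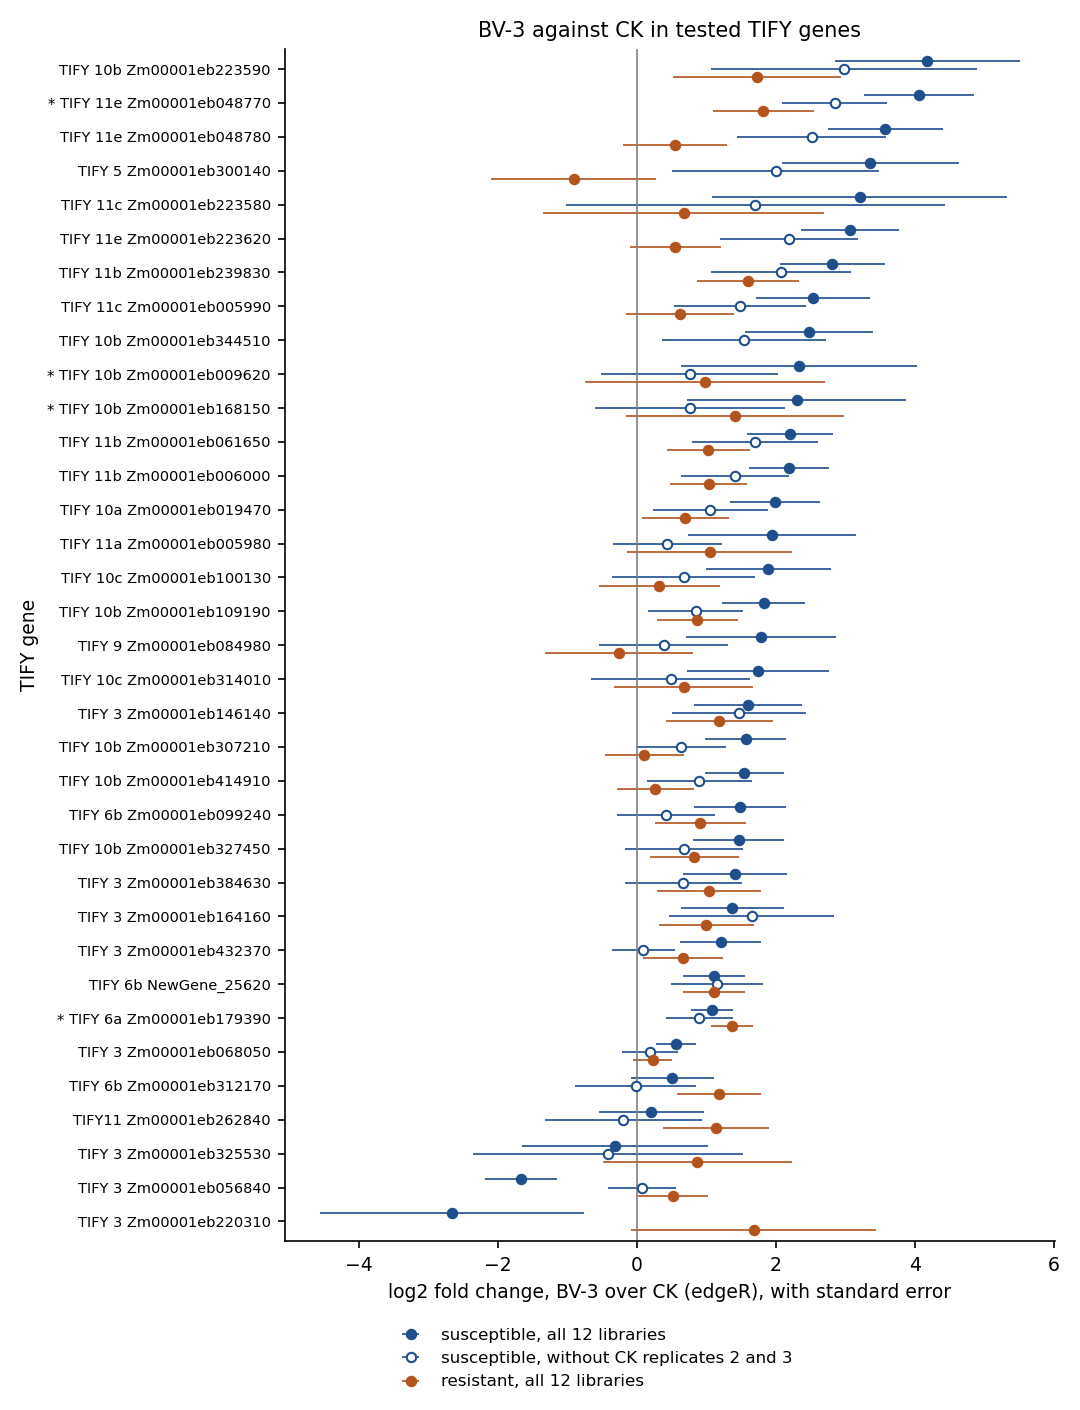
Log2 fold change of BV-3 over CK from edgeR (horizontal axis, with standard error) for the 4 TIFY genes, marked with an asterisk, and the 31 others tested. Filled blue points are the libraries labelled susceptible and open blue points the same without CK replicates 2 and 3, where the median of the TIFY genes other than the 4 is 0.98 in place of 1.74; orange points are the resistant libraries, with a median of 0.87. A point is left out where all CK libraries used are at 0.

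Under BV-3, 26 of the 31 other TIFY genes had a lower fitted level in the resistant than in the susceptible class. EdgeR on all 12 libraries called 0 of 31 and 0% of all genes. Its unadjusted p was under 0.05 in 15 of the 31, beside 7522 of all 34291 genes. The median log2 fold change of the 31 was -1.51 against 0.01 over all genes. In 17 of 31, or 54.8%, all resistant libraries lay below all susceptible ones, against 14.7% of all genes, and in 5, or 16.1%, above them, against 20.8%. On the 6 BV-3 libraries alone edgeR called 15 of 32 lower and 2 higher, beside 9.98% and 6.86% of all genes. DESeq2 on all libraries called 8 lower and 2 higher of 31, beside 6.59% and 7.18% of all genes, and limma called 1 lower and 3 higher, beside 3.92% and 3.05%. Left without CK susceptible replicate 1, edgeR called 6 lower and 2 higher of 34, beside 6.11% and 5.74% of all genes. It called 0 lower and 1 higher without CK resistant replicate 2, beside 0.385% and 0.112%, and 5 lower and 2 higher without the 2 libraries that go against their label, beside 5.07% and 4.72%. Without those 2 and CK resistant replicate 2 the counts were 10 lower and 2 higher, beside 9.02% and 6.81%.

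This line difference is illustrated by 3 genes, chosen after their values were seen. In the fit of all 12 libraries none of the 3 passed (edgeR adjusted p = 0.117, 0.206 and 0.0634, in the order below). TIFY 5 (Zm00001eb300140) stood at 9.75, 25.8 and 21.3 FPKM in BV-3 susceptible and at 0.826, 2.26 and 1.22 FPKM in BV-3 resistant libraries (log2 fold change -3.97 ± 0.51 on the 6 libraries, edgeR adjusted p = 0.00418). TIFY 11a (Zm00001eb005980) stood at 67.0, 63.5 and 29.4 against 5.18, 9.03 and 11.2 FPKM (-2.88 ± 0.42, edgeR adjusted p = 0.00577). TIFY 3 (Zm00001eb056840) went the other way, at 6.41, 8.35 and 8.90 FPKM in BV-3 susceptible and 49.8, 74.2 and 32.1 FPKM in BV-3 resistant libraries (2.58 ± 0.33, edgeR adjusted p = 0.00415). CK susceptible replicates 2 and 3, at 28.5 and 33.2 FPKM of this TIFY 3 gene, again lay with the resistant libraries, and CK susceptible replicate 1, at 7.03 FPKM, with the susceptible ones.

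The rest of the pathway was described by lists of gene descriptions. Of the 74 genes listed for jasmonate synthesis 68 were tested, and in the susceptible comparison 7 rose and 0 fell (edgeR), beside 2.30% and 3.90% of all genes. The 7 were an allene oxide cyclase, a pair of allene oxide synthases, 3 phospholipases A1, which can release fatty acids from membranes, and a probable lipoxygenase 6 (Zm00001eb005920). The allene oxide cyclase (Zm00001eb393530) stood at 16.4, 3.33 and 5.78 FPKM in CK and at 77.9, 114 and 74.4 FPKM in BV-3 libraries (log2 fold change 3.33 ± 0.65, edgeR adjusted p = 0.0398). One allene oxide synthase (Zm00001eb058640), the enzyme before it in the pathway, stood at 5.25, 2.03 and 1.40 against 23.2, 24.7 and 8.10 FPKM (2.66 ± 0.63, edgeR adjusted p = 0.0429). An oxophytodienoate reductase (Zm00001eb373050), also on the synthesis list, had 7.47, 0.818 and 0.639 against 32.0, 39.1 and 32.9 FPKM and did not pass (3.49 ± 1.03, edgeR adjusted p = 0.0643).

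Of 21 tested genes of the receptor and its partners, 1 rose and 0 fell in the susceptible comparison, beside 2.30% and 3.90% of all genes, so that a single call is near the background. It was a MYC2 gene (Zm00001eb024330), the transcription factor that JAZ proteins hold in check, at 58.0, 24.7 and 32.1 FPKM in CK and 144, 167 and 85.4 FPKM in BV-3 libraries (1.76 ± 0.44, edgeR adjusted p = 0.0465). A second MYC2 gene (Zm00001eb390330) had 39.1, 6.29 and 9.61 against 124, 132 and 84.3 FPKM and did not pass (2.57 ± 0.72, edgeR adjusted p = 0.0572). The Ninja-family protein 7 gene (Zm00001eb343360), of the adaptor family that links JAZ proteins to co-repressors, had a log2 fold change of 0.75 ± 0.24 (edgeR adjusted p = 0.0772).

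Of 32 tested genes for the conjugation and turnover of jasmonate, 1 rose and 1 fell, also near the background of 2.30% and 3.90%. Both are described as something other than jasmonate enzymes by their closest Swiss-Prot protein, which puts them outside the theme of the list. The one that rose (Zm00001eb199360) is described as an anthranilate O-methyltransferase in one protein database and as a jasmonate O-methyltransferase in another, and stood at 0.770, 0.0389 and 0 FPKM in CK and at 26.1, 49.0 and 29.8 FPKM in BV-3 libraries (6.96 ± 1.59, edgeR adjusted p = 0.0426). The one that fell (Zm00001eb344470) is described as an isoprenylcysteine methylesterase. It stood at 0.571, 1.89 and 1.69 FPKM in CK susceptible replicates 1, 2 and 3 and at 0.327, 0.336 and 0.197 FPKM in BV-3 libraries (-2.24 ± 0.54, edgeR adjusted p = 0.0436). CK susceptible replicates 2 and 3, which go against their label, lay within the 1.43 to 3.04 FPKM of the resistant libraries. The P450 94C1 gene (Zm00001eb164090), of a family that oxidises the active hormone, had 11.4, 1.01 and 2.44 against 106, 51.3 and 27.3 FPKM and did not pass (3.59 ± 1.06, edgeR adjusted p = 0.0635).

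Among 39 tested genes of jasmonate-related defence proteins, 0 rose and 2 fell, both protease inhibitors, beside 2.30% and 3.90% of all genes, shares near those of the list. DESeq2 called 4 of the 39 higher and 6 lower, beside 8.22% and 12.2% of all genes, and limma 1 higher and 2 lower, beside 4.77% and 1.87%. The chymotrypsin inhibitor CI-1B (Zm00001eb267030) stood at 44.4, 27.6 and 45.8 FPKM in CK and at 2.57, 1.00 and 6.04 FPKM in BV-3 libraries (-3.64 ± 0.72, edgeR adjusted p = 0.0398). The Bowman-Birk trypsin inhibitor (Zm00001eb079730) stood at 15.0, 39.7 and 156 against 3.00, 4.06 and 3.25 FPKM (-4.40 ± 1.02, edgeR adjusted p = 0.0426).

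Over the 5 lists, 12 of 191 tested genes rose and 3 fell in the susceptible comparison, beside 2.30% and 3.90% of all genes. Leaving out any 1 library moved the total of 15 to between 0 and 67. It was 67 without CK susceptible replicate 1, with 59 of 197 higher and 8 lower beside 10.1% and 9.35% of all genes. It was 43 without CK resistant replicate 2, beside 6.31% of all genes higher and 8.59% lower, and 0 without any one of the other 10 libraries. The median log2 fold change of the listed genes was 0.77. It was 0.46 without the 2 libraries that go against their label, which leaves 1 CK susceptible library, and 0.47 without CK resistant replicate 2 as well. In the resistant comparison edgeR called 0 of 191, with 25 at an unadjusted p under 0.05, beside 3452 of all 34291 genes. DESeq2 called 7 higher and 3 lower, beside 1.61% and 1.43% of all genes. Every BV-3 resistant library lay above every CK resistant library in 28 of the 191, or 14.7%, against 7.71% of all genes. In 11, or 5.76%, every one lay below, against 9.46%. The allene oxide cyclase Zm00001eb393530 had a mean of 11.3 ± 5.45 FPKM in CK resistant and 23.2 ± 10.6 FPKM in BV-3 resistant libraries (SD, n = 3), with overlapping ranges. The oxophytodienoate reductase Zm00001eb373050 stood at 1.17, 0.172 and 1.04 FPKM in CK resistant and at 16.5, 13.1 and 2.94 FPKM in BV-3 resistant libraries. Its log2 fold change was 3.82 ± 1.06 and did not pass (edgeR adjusted p = 0.351).

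The summed levels of other gene groups also differed between CK and BV-3 libraries. Morning genes of the circadian clock, a list of 21, summed to 167 to 469 FPKM in the 6 CK libraries and to 641 to 3348 FPKM in the 6 BV-3 libraries, while edgeR called 2 of the 18 tested higher and 1 lower in the susceptible comparison, beside 2.30% and 3.90% of all genes. Evening clock genes summed to 125 to 265 FPKM under CK and to 132 to 735 FPKM under BV-3, with the 735 FPKM in BV-3 susceptible replicate 3, which also had the lowest morning sum of its group and the lowest levels of TIFY 11e and the TIFY 10b pair, but the highest level of TIFY 6a. Green-leaf genes summed to 36986 to 49332 FPKM in CK susceptible and 16426 to 33217 FPKM in BV-3 susceptible libraries, where 0 of 67 tested rose and 2 fell. In 43 of the 67, or 64.2%, every BV-3 susceptible library lay below every CK susceptible library, against 14.1% of all genes. The sums ran from 1762 to 22278 FPKM in CK resistant and from 14240 to 45314 FPKM in BV-3 resistant libraries. Of the 426 ribosomal protein and histone genes tested, 2 rose and 25 fell in the susceptible comparison, beside 2.30% and 3.90% of all genes, with a median log2 fold change of -0.37. In the resistant comparison 0 were called by edgeR, with 35 at an unadjusted p under 0.05, beside 3452 of all 34291 genes, and a median of -0.86. The part of the clock, of green tissue, of dividing cells or of the time of harvest in the levels of the TIFY genes was not tested. In libraries of whole plants, fewer cells of a type and less RNA per cell cannot be told apart.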

How the data were processed

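The authors deposited 1 table that holds raw counts and FPKM for every gene in each library, per the file headers; the submitters' processing notes name B73 RefGen version 4 as the genome build. Libraries kept strand information, per the labels' protocols; no source used here gives the aligner, the counter or the strand setting used in counting. Of 52934 lines, 2 named no gene and were dropped. Identifiers did not match the reference gene table (0 matched), and 32306 genes have a symbol it lists. Counts were tested with edgeR 4.0.16 (R 4.3.3; quasi-likelihood, TMM scaling, edgeR's filter on low counts, 34291 genes, 12 libraries in 1 fit of 4 group means), with Benjamini-Hochberg adjustment over all genes tested. Standard errors come from the F value. limma 3.58.1 and DESeq2 1.42.0 were alternatives.

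The members and the lists, which are search patterns over gene descriptions, were chosen with earlier results of these data known. Named genes are the 4 members, the other TIFY genes, for each other list up to 4 genes of smallest p in the susceptible and 2 more in the resistant comparison that reach a group mean of 1 FPKM, and for each member the 3 genes of highest r among tested genes of at least 5 FPKM. Lipoxygenase 6 was named after its value was seen. Line markers have over 2 CPM in each BV-3 library of one class and at most 2 counts in each of the other, and count as present above 1 CPM. Libraries of a group differed beyond sampling noise (mean chi-square per gene 66.9 to 452), so none was a copy of another. All 12 were kept in the main fit, among them the 2 that go against their label and CK resistant replicate 2, which that check does not bear on.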

Additional observations from a re-analysis of the deposited data

How the results depend on the processing

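The susceptible comparison called 15 of the listed jasmonate genes other than the 4 TIFY genes. Over all genes 2.30% were called higher and 3.90% lower. It called 65 with DESeq2's Wald test (8.22% and 12.2% of all genes), 38 with limma on log2(FPKM + 1) (4.77% and 1.87%) and 38 with a pseudocount of 0.1, 5 on its 6 libraries alone (1.67% and 2.75%), 0 without the 2 libraries that go against their label and 0 without those 2 and the CK resistant library that stands apart. With the pseudocount of 0.1, 1414 of all 34291 genes were called higher and 754 lower. Leaving out 1 library gave 0 to 67. The resistant comparison, with 0 calls by edgeR, had 10 with DESeq2 (1.61% and 1.43%) and 0 in each fit that left out 1 library. Resistant against susceptible under BV-3, with 0 calls, had 38 with DESeq2 (7.18% and 6.59%), 19 with limma at either pseudocount (3.05% and 3.92% with 1), 53 on the 6 BV-3 libraries alone (6.86% and 9.98%), 19 without the 2 libraries (4.72% and 5.07%), 44 without the 3 (6.81% and 9.02%), and 0 to 25 with 1 library left out. DESeq2's size factors, no filter on low counts, and lists without genes outside their theme (chosen after seeing the data) kept all 3 counts within 1.5 times. The replicate block gave 8 calls in place of 15 in the susceptible comparison, beside 318 of all 34291 genes called higher and 228 lower, and 0 in the others. The numbers were not shown to pair the libraries, since same-numbered CK and BV-3 libraries had correlations of their deviations of 0.0373, -0.149 and -0.0133 in the susceptible and 0.369, 0.448 and -0.0622 in the resistant class. The cause of these shifts was not tested. The sign of each of the 4 genes' log2 fold changes was kept under every alternative run, in both classes. The kept sign is a description only, since the 4 were picked on these libraries and the alternatives reuse them. Some values were smaller than their standard error. For Zm00001eb009620 in the resistant class the value was 0.98 ± 1.73, and 0.43 ± 1.88 without CK resistant replicate 2.

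The common biological coefficient of variation over groups of 3 was 0.682, with the 2 libraries that go against their label included. Depth limits the TIFY 10b pair in the libraries with resistant markers, where a gene has 0 to 121 counts.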
